A study of Mus musculus with 10 samples.

Results

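The transcripts of 10 mouse Toll-like receptor genes were compared between sorted microglia, the resident macrophages of the brain, and unsorted brain tissue. The members were taken by gene name from the deposited count table (Tlr1 to Tlr9 and Tlr13, 10 of 56748 genes, each name standing in 1 row), and all 10 passed the filter on low counts together with 18969 genes in all. The microglia samples were 5 preparations of 400000 CD11b+ cells each, sorted from brain, and the bulk brain samples were 5 hemi brains that the labels describe as holding all brain cells. All mice were young C57BL/6 males, with no transgene, treatment or exact age given for either group. CD11b is carried by other myeloid cells too, so the sort does not by itself separate microglia from macrophages of the brain's borders. All 10 carry the same batch number in the labels. Nothing in the labels ties the samples to separate mice, and p-values then speak only to the spread among these preparations, part of which may be technical. Libraries were made from poly(A) RNA. Bulk brain replicates 1 and 2 stood apart from replicates 3 to 5. Scaled to 1 for sampling noise alone, the chi-square of their counts against those of replicates 3 to 5 was 106 to 278, against 46.6 between replicates 1 and 2 and 5.45 to 7.76 among replicates 3 to 5. Results are also given against replicates 3 to 5 alone where that changes them.

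Toll-like receptors are transmembrane proteins whose leucine-rich ectodomain binds microbial or damage-associated molecules and whose cytoplasmic TIR domain recruits adaptor proteins. Receptors at the cell surface (Tlr1, Tlr2, Tlr4, Tlr5 and Tlr6) mostly recognise lipids and proteins of microbes, whereas receptors of endosomes (Tlr3, Tlr7, Tlr8, Tlr9 and Tlr13) recognise nucleic acids. Most members signal through the adaptor Myd88, Tlr3 signals through Ticam1 (TRIF), and Tlr4 uses both. Microglia are the brain cells best known for responding through these receptors, and Tlr3 is also known from astrocytes and neurons.

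The sorted samples carried the markers of microglia. All 10 of 10 listed markers (among them P2ry12, Tmem119, Itgam, Cx3cr1, Csf1r, Sall1 and Gpr34) were higher there, and their summed level was 32897 to 34121 CPM (counts scaled to a common library total adjusted for composition) against 233 to 254 CPM in bulk brain. All 9 markers of border-associated macrophages were also higher in the sort, summing to 2055 to 2280 CPM against 24.5 to 28.4 CPM, of which Stab1 gave 1623 CPM and Mrc1 gave 282 CPM. In bulk brain these 9 stood at 0.788% (Siglec1) to 8.14% (Folr2) of their level in the sort, with Stab1 at 0.992%. The 10 microglia markers stood there at 0.533% to 2.26%. The 8 neutrophil markers summed to 8.34 to 18.6 CPM in the sort and 1.98 to 3.58 CPM in bulk brain. The 5 monocyte markers summed to 23.1 to 34.7 CPM against 0.173 to 0.683 CPM, with Ccr2 at 25.6 CPM and F10 at 0 counts in the sort. The 6 B cell markers summed to 322 to 389 CPM against 17.0 to 31.2 CPM, of which Ighm gave 337 CPM in the sort, while Ms4a1 stood at 0.0774 CPM. The 6 dendritic cell markers summed to 31.1 to 41.9 CPM against 29.8 to 45.7 CPM, but this sum hides members that went opposite ways. Of these markers, 3 were called higher in the sort and 2 lower. For all marker lists the background was 37.2% of 18969 genes tested called higher and 43.9% called lower. Cd209a averaged 18.3 CPM in the sort and 0.372 CPM in bulk brain, whereas Flt3 averaged 3.43 CPM and 17.1 CPM. Ccr7 and Clec9a went the way of Cd209a, and Zbtb46 that of Flt3. The 6 T and NK cell markers summed to at most 0.796 CPM against at most 3.38 CPM. The part of these cells in the receptor levels was not tested. Libraries held 25087489 to 28514509 counts in microglia and 25845049 to 34709215 in bulk brain, where a gene with 0 counts may have a true level of up to 3 counts (0.0821 to 0.125 CPM). These limits cover counting error only.

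The RefSeq windows of 250 bases before their start sites (GRCm38.p6, an earlier build than the GRCm39 coordinates given for genes below) were searched for motifs of factors known in macrophages. Windows were found for 8 of the 10 members (10 windows, with 2 each for Tlr1 and Tlr6). None was available for Tlr4 and Tlr7, which were therefore not searched. The letters GAGGAAG, a core bound by the macrophage factor PU.1, stood on either strand in 3 member windows (Tlr1, Tlr9 and Tlr13) and in 10.6% of all 32851 windows. The AP-1 letters TGANTCA stood in 1 member window (Tlr9) and in 6.75% of all windows. A motif for NF-kappaB, the factor that Toll-like receptors activate, stood in 2 (Tlr2 and Tlr3) and in 7.25% of all windows. With 10 windows these counts are descriptions, and a match is not a measured binding site. The 5 windows with a match follow 5′ to 3′ on the gene's strand, with the matched letters in capitals, because they cover the most abundant surface receptor in microglia (Tlr2), 2 abundant endosomal receptors (Tlr13 and Tlr9) and the receptor whose pattern stood apart (Tlr3).
Tlr2, chr3:83841609-83841858, minus strand: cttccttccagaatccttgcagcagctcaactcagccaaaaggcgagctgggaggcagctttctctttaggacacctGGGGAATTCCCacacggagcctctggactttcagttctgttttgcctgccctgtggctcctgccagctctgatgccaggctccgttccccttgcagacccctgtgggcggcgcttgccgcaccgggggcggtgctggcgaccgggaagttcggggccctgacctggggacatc
Tlr1, chr5:64933559-64933808, minus strand: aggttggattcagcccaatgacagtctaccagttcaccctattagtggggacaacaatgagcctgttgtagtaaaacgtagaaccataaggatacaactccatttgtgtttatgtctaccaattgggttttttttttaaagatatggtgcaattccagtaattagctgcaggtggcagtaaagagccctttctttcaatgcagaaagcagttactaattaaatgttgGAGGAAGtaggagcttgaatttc
Tlr13, chrX:106143025-106143274, plus strand: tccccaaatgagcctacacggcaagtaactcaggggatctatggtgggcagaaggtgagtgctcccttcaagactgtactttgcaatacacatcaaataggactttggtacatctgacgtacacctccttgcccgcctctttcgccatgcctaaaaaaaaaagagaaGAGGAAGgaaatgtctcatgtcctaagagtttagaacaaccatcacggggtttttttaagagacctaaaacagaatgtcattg
Tlr9, chr9:106222348-106222597, plus strand: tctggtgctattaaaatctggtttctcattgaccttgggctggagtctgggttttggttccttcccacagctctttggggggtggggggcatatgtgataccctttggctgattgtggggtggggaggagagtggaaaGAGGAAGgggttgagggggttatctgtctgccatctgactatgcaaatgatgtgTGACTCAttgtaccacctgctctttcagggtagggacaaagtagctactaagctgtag
Tlr3, chr8:45410381-45410630, minus strand: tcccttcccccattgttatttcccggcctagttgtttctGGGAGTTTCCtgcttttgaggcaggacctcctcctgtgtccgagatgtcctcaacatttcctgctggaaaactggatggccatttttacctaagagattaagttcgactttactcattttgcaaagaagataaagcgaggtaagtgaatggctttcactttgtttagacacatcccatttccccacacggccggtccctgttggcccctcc

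In the Tlr2 window the capitals are overlapping matches to the NF-kappaB motif, of which the farther begins 173 bases before the start, and in the Tlr3 window the match begins 211 bases before it. The PU.1-type letters begin 23 bases before the start in Tlr1, 83 in Tlr13 and 112 in Tlr9. In Tlr9 the second run of capitals, 58 bases before the start, is the AP-1 match.

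All 10 receptor genes were higher in microglia than in bulk brain, and in each of them the lowest microglia library lay above the highest bulk brain library. The share of all genes that separate in this way was not counted. By edgeR's quasi-likelihood test at an adjusted p under 0.05, 10 of 10 were called higher and 0 lower, where 37.2% of all 18969 genes tested were called higher and 43.9% lower. The log2 differences (microglia minus bulk brain) ranged from 3.13 for Tlr3 to 7.93 for Tlr7, with a median of 6.92 over the 5 surface receptors and 6.83 over the 5 endosomal receptors, against -0.14 over all genes tested. All 10 were called higher against bulk brain replicates 3 to 5 alone as well. The next smallest after Tlr3 was 6.05, for Tlr5. Only the microglia were sorted. Fewer microglia in a tissue sample, less receptor RNA per cell and the effect of sorting cannot be told apart in these bulk libraries.

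**Figure D1:**
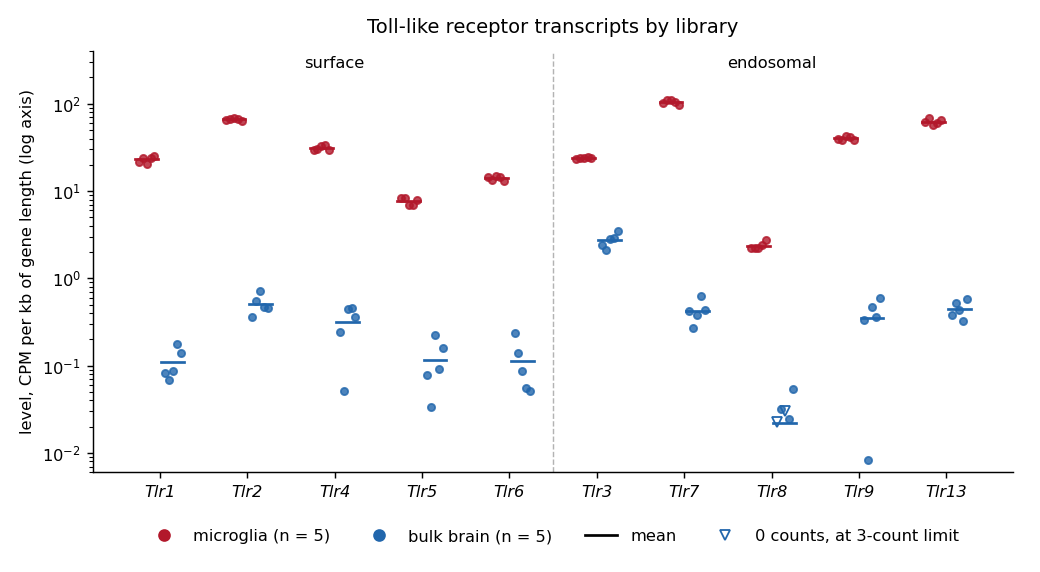
Level of each receptor transcript in each library, in CPM per kb of gene length on a log axis, with surface receptors on the left and endosomal receptors on the right. Each point is a library, each line the mean of 5, and open triangles mark the 2 bulk brain libraries with 0 Tlr8 counts at their 3-count limit. The groups do not overlap for any receptor, though the share of all genes without overlap was not counted. Tlr3 is the highest receptor in bulk brain.

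Among surface receptors, Tlr2 was the most abundant in microglia. Tlr2 binds bacterial lipopeptides as a partner of Tlr1 or Tlr6 (ENSMUSG00000027995, chromosome 3, 83743579 to 83749074, minus strand, GRCm39). Its level in microglia replicates 1 to 5 was 198, 199, 208, 199.7 and 191 CPM, and in bulk brain replicates 1 to 5 it was 1.10, 1.67, 2.18, 1.43 and 1.38 CPM. The microglia libraries lay close together and far above every bulk brain library, with a log2 difference of 7.01 ± 0.18 (SE; edgeR adjusted p = 2.2e-11).

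Tlr4, the receptor for bacterial lipopolysaccharide (ENSMUSG00000039005, chromosome 4, 66745821 to 66848521, plus strand), followed in microglia. It stood at 164, 169, 182, 186 and 163 CPM in microglia replicates 1 to 5 and at 1.37, 0.289, 2.47, 2.55 and 2.01 CPM in bulk brain. Bulk brain replicate 2, with 10 counts, lay below the other 4, which held 50 to 86. The log2 difference was 6.64 ± 0.43 (SE; edgeR adjusted p = 3.6e-08). A noncoding gene on the same strand (ENSMUSG00000121059, 66762713 to 66764269) lies inside Tlr4 and held 653 to 758 counts in microglia and 2 to 28 in bulk brain, and reads of the pair may be mixed.

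Tlr1 and Tlr6, the partners of Tlr2, lie 18467 bases apart on the minus strand of chromosome 5. Tlr1 (ENSMUSG00000044827, 65082022 to 65090906) averaged 77.2 ± 6.42 CPM (SD over 5 libraries) in the sort and 0.372 ± 0.154 CPM in the tissue, a log2 difference of 7.68 ± 0.23 (SE; edgeR adjusted p = 6.3e-11). Tlr6 (ENSMUSG00000051498, 65109374 to 65117440) stood at 52.6 ± 3.18 CPM and 0.425 ± 0.284 CPM, a log2 difference of 6.92 ± 0.34. In bulk brain Tlr6 had 32 and 18 counts in replicates 1 and 2 and 7 to 9 in the other 3, whereas Tlr1 had 8 to 10 in replicates 1 to 3 and 17 to 20 in the other 2. The transcripts of this pair are near copies in places. Of the stretches of 50 bases in the longest Tlr1 transcript (GENCODE vM21), 15.3% also occur in Tlr6, and 12.6% of those of Tlr6 occur in another gene. How the authors counted reads that match both is not given, so the split between these 2 genes is uncertain. For the other 8 members the share was 0, except 1.56% in Tlr3, all with an antisense noncoding gene that had 0 counts in every library. The annotation of the deposited counts is not given, and a gene missing from GENCODE vM21 would not be found by this search.

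Tlr5, the receptor for bacterial flagellin (ENSMUSG00000079164, chromosome 1, 182782353 to 182804010, plus strand), was the least abundant surface receptor in microglia. Its counts were 1092, 1108, 939, 900 and 977 in microglia and 15, 6, 32, 16 and 30 in bulk brain, or 39.8 ± 3.63 CPM and 0.610 ± 0.388 CPM by mean and SD. The bulk brain libraries spread more widely (coefficient of variation 63.7%) than the microglia libraries (9.11%), and the log2 difference was 6.05 ± 0.37 (SE; edgeR adjusted p = 2.1e-08).

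Among endosomal receptors, Tlr7 was the most abundant in microglia and had the largest log2 difference of the family. Tlr7 recognises single-stranded RNA (ENSMUSG00000044583, chromosome X, 166087925 to 166113554, minus strand). It stood at 422, 455, 451, 424 and 392 CPM in microglia replicates 1 to 5 and at 1.72, 1.10, 1.56, 2.58 and 1.76 CPM in bulk brain. Every microglia library held at least 9396 counts and no bulk brain library more than 87, with a log2 difference of 7.93 ± 0.22 (SE; edgeR adjusted p = 3.7e-11).

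Tlr8, the neighbour of Tlr7 at 40599 bases on the same strand of the X chromosome and likewise a sensor of single-stranded RNA, was the rarest member (ENSMUSG00000040522, 166025692 to 166047325). It had 200, 206, 210, 216 and 238 counts in microglia and 0, 4, 0, 3 and 7 in bulk brain. Its log2 difference was 6.62 ± 0.52 (SE; edgeR adjusted p = 2.1e-07). From the summed counts of each group (1070 and 14), divided by the adjusted library totals, the ratio was 102, with a 95% exact counting interval of 60.7 to 188. That interval covers counting error only and leaves out the spread among libraries. Tlr8 shares no stretch of 50 bases with Tlr7.

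Tlr13, a sensor of bacterial ribosomal RNA that humans lack, was the second most abundant endosomal receptor (ENSMUSG00000033777, chromosome X, 105186810 to 105204099, plus strand). It stood at 263, 295, 246, 262 and 280.3 CPM in microglia and at 1.64, 2.25, 1.89, 1.40 and 2.53 CPM in bulk brain. The bulk brain libraries were the least spread of the 9 receptors other than Tlr3 (coefficient of variation 23.5%), and the log2 difference was 7.11 ± 0.18 (SE; edgeR adjusted p = 2e-11).

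Tlr9, the sensor of DNA with unmethylated CpG (ENSMUSG00000045322, chromosome 9, 106099797 to 106104082, plus strand), stood at 139, 135, 147, 147 and 133 CPM in microglia. In bulk brain it stood at 1.15, 0.0289, 1.64, 1.25 and 2.09 CPM. Bulk brain replicate 2 held a single Tlr9 count where the other 4 held 42 to 76, and the log2 difference was 6.83 ± 0.53 (SE; edgeR adjusted p = 1.9e-07). Replicate 2 was the lowest bulk brain library for 6 of the 10 members (Tlr1, Tlr3, Tlr4, Tlr5, Tlr7 and Tlr9), although its summed level of microglia markers, 254 CPM, was the highest of the 5.

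Tlr3, the sensor of double-stranded RNA, differed least between the groups (ENSMUSG00000031639, chromosome 8, 45848702 to 45864117, minus strand). It stood at 123, 126, 126, 129 and 124 CPM in microglia replicates 1 to 5 and at 12.5, 11.1, 14.9, 15.2 and 18.1 CPM in bulk brain. The microglia libraries lay close together (coefficient of variation 1.89%), and the bulk brain libraries spread more widely (18.6%). The lowest microglia library lay well above the highest bulk brain library, and the log2 difference was 3.13 ± 0.13 (SE; edgeR adjusted p = 9.7e-10). The bulk brain libraries held 2420 Tlr3 counts, more than the 1622 of the other 9 members together.

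The order of the receptors differed between the groups when levels were divided by gene length. In microglia Tlr7 led at 105.0 ± 6.29 CPM per kb (SD, n = 5), followed by Tlr2 (66.1 ± 2.08) and Tlr13 (62.6 ± 4.35), whose libraries overlapped. Tlr9 (40.3 ± 1.91) and Tlr4 (31.1 ± 1.91) came next, each apart from its neighbours. Tlr3 (24.1 ± 0.456) and Tlr1 (23.1 ± 1.92) overlapped, and Tlr6 (14.1 ± 0.853), Tlr5 (7.67 ± 0.699) and Tlr8 (2.37 ± 0.232) stood below in that order without overlap. In bulk brain Tlr3 led at 2.76 ± 0.513 CPM per kb, above every library of the others. Tlr2 (0.515 ± 0.136), Tlr13 (0.451 ± 0.106), Tlr7 (0.428 ± 0.132), Tlr9 (0.354 ± 0.221) and Tlr4 (0.313 ± 0.169) each overlapped their neighbour in the order. So did Tlr5 (0.117 ± 0.0748), Tlr6 (0.114 ± 0.0763) and Tlr1 (0.111 ± 0.0460), and Tlr8 (0.0222 ± 0.0228) was lowest, below every library of Tlr1. Values after ± are SD over 5 libraries.

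Endosomal receptors made up more of the family's transcripts than surface receptors in both groups. Per length, they took 62.3% ± 0.626 (SD, n = 5) of the summed level in microglia and 77.4% ± 3.17 (n = 5) in bulk brain. The shares were 62.2, 63.3, 62.1, 61.7 and 62.0% in microglia and 77.8, 77.8, 72.6, 77.2 and 81.5% in bulk brain, so that the groups did not overlap. Tlr3 alone took 6.41% ± 0.128 in microglia and 53.3% ± 2.31 in bulk brain, while Tlr7 took 27.9% ± 1.09 and 8.27% ± 2.08. Without Tlr3 the endosomal share was 59.7% ± 0.715 in microglia and 51.6% ± 5.02 in bulk brain, the opposite direction. These shares are descriptions over chosen genes and were not tested.

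**Figure D2:**
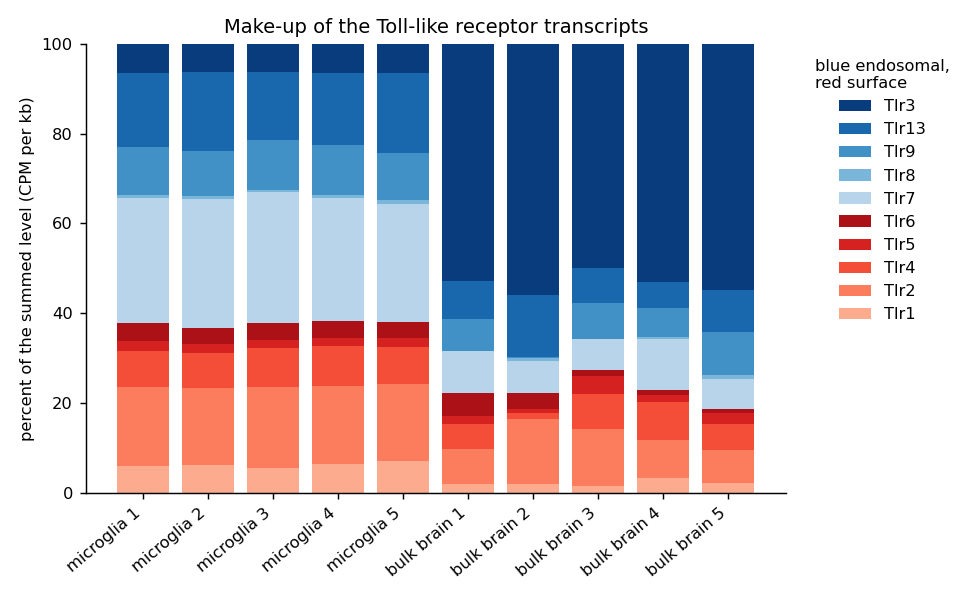
Make-up of the receptor transcripts in each of the 10 libraries, as percent of the summed level in CPM per kb, with surface receptors in red below and endosomal receptors in blue above. Tlr3 takes 6.41% on average in microglia and 53.3% in bulk brain.

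The level that bulk brain held of each receptor was set beside that of the 10 microglia markers. The markers stood in bulk brain at 0.533% (Gpr34) to 2.26% (Sall1) of their microglial level, with a median of 0.642%. Of the receptors, 7 lay within that range, from 0.722% ± 0.170 for Tlr13 to 1.53% ± 0.975 for Tlr5 (SD, n = 5 bulk brain libraries). Tlr7 (0.407% ± 0.125) and Tlr1 (0.481% ± 0.199) lay below it, and Tlr3 (11.4% ± 2.13) lay above it, at 8.87 to 14.4% in the single libraries. Against bulk brain replicates 3 to 5 alone the marker range was 0.526 to 2.54%, and 7 receptors again lay within it, with Tlr6 (0.461%) and Tlr7 below it and Tlr3 above it. Without bulk brain replicate 5, Tlr8 stood at 0.601% in place of 0.934%, still within the marker range. Without replicate 2 only Tlr7 lay below the range.

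**Figure D3:**
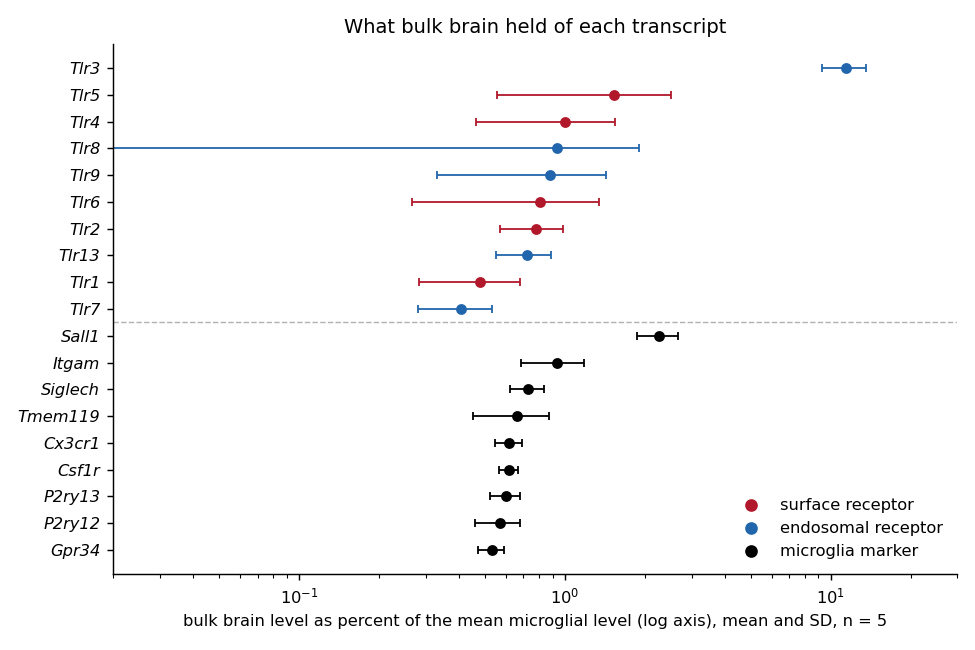
Bulk brain level of each receptor (top) and of 9 of the 10 microglia markers (bottom) as percent of its mean microglial level, on a log axis, with the mean and SD over 5 bulk brain libraries. The lower bar of Tlr8 runs off the axis because its SD exceeds its mean, and Tlr3, at 11.4%, lies to the right of the markers, which reach 2.26%.

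To ask which receptors departed from the markers, the counts were scaled to the summed counts of the 10 markers in each library, and the same test was run over all 18969 genes, a comparison added after the data had been seen. On this scale 97.0% of all genes were called lower in microglia and 0.364% (69 genes) were called higher. Of the receptors, 1 was called higher (Tlr7), 2 lower (Tlr3 and Tlr5) and 7 did not pass the threshold. With nearly all genes called, the adjustment changes p-values little on this scale. Its error rate covers all calls together and does not limit false calls among the few genes called higher.

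Per 1000 marker counts, microglia held 12.8 ± 0.628 Tlr7 counts and bulk brain 7.22 ± 2.34 (SD, n = 5 each), a log2 difference of 0.82 ± 0.21 (SE; edgeR adjusted p = 0.0025). Tlr7 kept this call in all 15 alternatives, with log2 differences of at least 0.48 and adjusted p-values of at most 0.047. Also among the 69 genes called higher on this scale were 5 of the markers themselves, which the scaling used, and the cytokine genes Tnf, Il1b and Cxcl2.

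Tlr3 went the other way, with 3.74 ± 0.0695 counts per 1000 marker counts in microglia and 59.1 ± 10.8 in bulk brain. The log2 difference was -3.98 ± 0.15 (SE; edgeR adjusted p = 4.2e-11), and it ranged from -4.33 to -3.73 over the alternatives. Bulk brain also held the markers of other brain cells, at 1938 to 3241 CPM for 6 astrocyte, 264 to 329 CPM for 6 endothelial, 5548 to 7531 CPM for 6 oligodendrocyte and 3891 to 4895 CPM for 6 neuronal markers. In the sort the same lists summed to 5.17 to 25.9, 29.0 to 64.8, 143 to 245 and 3.82 to 5.39 CPM. The part of these cells in the Tlr3 level of bulk brain was not tested.

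Tlr5 was also lower in microglia per marker, at 1.19 against 2.52 counts per 1000 on average (log2 difference -1.07 ± 0.40 SE, edgeR adjusted p = 0.022). That call was lost without bulk brain replicate 3 (adjusted p = 0.086), without replicate 5 (0.059), with Itgam as the only marker (0.12) and with the replicate number as a block (0.11). Approximate 95% intervals follow for the rest. For Tlr13 (0.01, interval -0.33 to 0.35) and Tlr2 (-0.10, interval -0.47 to 0.27) the log2 differences were the smallest in size. Tlr4 (-0.48, interval -1.28 to 0.33) and Tlr9 (-0.28, interval -1.34 to 0.78) did not pass with all libraries. Without bulk brain replicate 2, in which both were low, they were called lower in microglia at -0.76 and -0.60 (edgeR adjusted p = 0.0019 and 0.0076). Tlr8 (-0.40, interval -1.62 to 0.82) and Tlr6 (-0.17, interval -0.93 to 0.58) did not pass. Against bulk brain replicates 3 to 5 alone, Tlr6 turned to 0.69 (adjusted p = 0.02), and Tlr4 and Tlr9 passed at -0.90 and -0.71 (edgeR adjusted p = 1.8e-05 and 0.00065). Tlr1 (0.59, interval 0.04 to 1.13, edgeR adjusted p = 0.061) passed without bulk brain replicate 4 (0.83, adjusted p = 0.011).

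**Figure D4:**
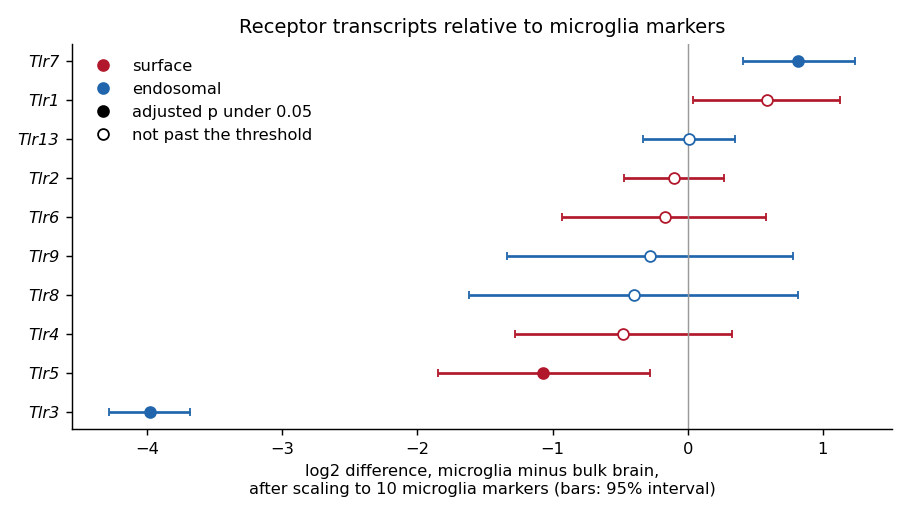
Log2 difference of each receptor, microglia minus bulk brain, after scaling each library to 10 microglia markers. Points are the fitted differences with approximate 95% intervals, filled where the adjusted p was under 0.05, and Tlr3 at -3.98 lies apart from the other 9, which range from -1.07 to 0.82.

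The genes whose levels over the 10 libraries lay closest to each receptor's (root mean squared difference of centred log2 levels) were found by a fixed rule. For Tlr7 they included the leukocyte phosphatase gene Ptprc and Nckap1l, at distances of 0.136 and 0.143. For Tlr2 the closest was Naip2, a sensor of bacterial secretion systems, at 0.043, and for Tlr13 it was Dennd1c at 0.119. Tlr4 and Tlr9 were each the other's closest gene at 0.219, and both shared Wdfy4 and Ms4a6b among their closest 3. The closest to Tlr3 were Sbno2, Pwwp2a and the neuronal gene repressor Rest, at 0.074 to 0.093. These distances are descriptions, and the difference between the 2 groups sets most of each profile.

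Genes of coreceptors and other accessory proteins of the receptors were mostly higher in microglia. Of 6 coreceptor genes, 5 were called higher and 1 lower (median log2 difference 5.52, against -0.14 over all genes). For this list and each of the other lists of genes that act with the receptors, the background was 37.2% of all genes tested called higher and 43.9% called lower. Cd180, a Tlr4-related surface protein, reached 261 ± 36.5 CPM against 1.58 ± 0.542 CPM (log2 difference 7.37), and Cd14, which hands lipopolysaccharide to Tlr4, reached 350.1 ± 13.6 CPM against 2.60 ± 0.380 CPM. Ly96 (MD-2), the subunit of Tlr4 that holds the lipid, was less abundant, at 15.1 ± 1.51 CPM against 0.733 ± 0.280 CPM (log2 difference 4.37). Lbp, the secreted lipopolysaccharide binding protein, was lower in microglia, at 0.507 ± 0.455 CPM against 5.61 ± 1.44 CPM (-3.46).

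Of 16 genes for trafficking and processing of endosomal receptors and their ligands, 15 were called higher and 1 lower (median 3.26). Unc93b1, the chaperone that carries nucleic acid sensing receptors to endosomes, stood at 1517 ± 22.3 CPM against 11.4 ± 3.86 CPM (log2 difference 7.05), which is 0.751% in bulk brain, within the range of the markers. Pld4, a nuclease of endolysosomes, had the largest difference (7.27, 911 ± 23.4 CPM against 5.89 ± 1.04 CPM), while the related Pld3 was lower in microglia (-1.34, 137 ± 5.81 CPM against 346 ± 62.0 CPM). Rnaset2a and Rnaset2b are close copies whose reads may be shared.

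Adaptors spanned a wide range of differences. Of 6, 5 were called higher and 1 lower (median 3.67). Myd88 stood at 65.6 ± 3.64 CPM against 4.68 ± 1.44 CPM (log2 difference 3.80) and Ticam1, which serves Tlr3 and Tlr4, at 28.3 ± 0.749 CPM against 4.52 ± 1.21 CPM (2.64). Ticam2, which links Tlr4 to Ticam1, reached the largest difference at 7.07 (52.5 ± 4.63 CPM against 0.399 ± 0.250 CPM). Sarm1, a TIR-domain enzyme of neurons, was lower in microglia (-2.73, 4.07 ± 0.767 CPM against 27.1 ± 5.25 CPM).

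Of 16 kinase and ubiquitin ligase genes downstream of the adaptors, 11 were called higher, 2 lower and 3 did not pass (median 1.48), and 4 were lower against bulk brain replicates 3 to 5 alone. Irak4, the first kinase bound by Myd88, had the largest difference (4.41, 43.4 ± 3.66 CPM against 2.04 ± 0.497 CPM). Ube2n, a ubiquitin-conjugating enzyme used in many tissues, was lower in microglia (-1.66). Traf3 (log2 difference 0.03), Tab3 (0.12) and Ikbke (0.19) did not pass the threshold. All 7 transcription factor genes were called higher (median 3.79), led by Irf8 at 627 ± 24.1 CPM against 4.61 ± 1.15 CPM (7.08), with Irf3, which acts after Tlr3, at 2.05.

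Of 11 negative regulators, 7 were called higher, 2 lower and 2 did not pass (median 3.06), and 3 were lower against bulk brain replicates 3 to 5 alone. The lipid phosphatase gene Inpp5d had the largest difference (7.13, 1335 ± 22.6 CPM against 9.54 ± 1.12 CPM). Sigirr, an inhibitory receptor of the same superfamily, was lower in microglia (-1.20, 0.736 ± 0.125 CPM against 1.70 ± 0.557 CPM), as was Tollip (-0.93), and Cyld (-0.29) and Tnip1 (0.10) did not pass. Of the 2 other mouse Toll-like receptor genes, Tlr12 stood at 69.5 ± 1.66 CPM against 0.708 ± 0.348 CPM (6.60, edgeR adjusted p = 8e-10), and Tlr11 at 0.936 ± 0.730 CPM against 0.0220 ± 0.0301 CPM (5.09), with 58 of its 119 microglia counts in a single library.

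Genes that these receptors can induce were higher in microglia where they passed the filter with all libraries. Of 13 listed, 8 were tested and all 8 were called higher (median 5.80), and 5 (Il12b, Il10, Nos2, Cxcl1 and Ifnb1) fell below the filter. Since a gene high in only 1 group passes the filter more easily, that count is no support. The chemokine gene Cxcl2 had 3551 counts in microglia and 0 in bulk brain, at least 1584-fold higher with a group total of 3 counts taken as its limit. Tnf had 3716 counts against 4 (ratio 1243, 95% exact counting interval 485 to 4566). Both ratios used the adjusted library totals, and their limits cover counting error only. The interferon gene Ifnb1 had 17 counts over the microglia libraries and 0 in bulk brain. Nos2 went the other way, with 17 counts in microglia and 106 in bulk brain. Against bulk brain replicates 3 to 5 alone, 10 of the 13 were called higher and 1, Nos2, lower. Only the microglia were sorted, so the effect of that handling and the cell type cannot be told apart in these genes. The same holds for the receptors on either scale.

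**Figure D5:**
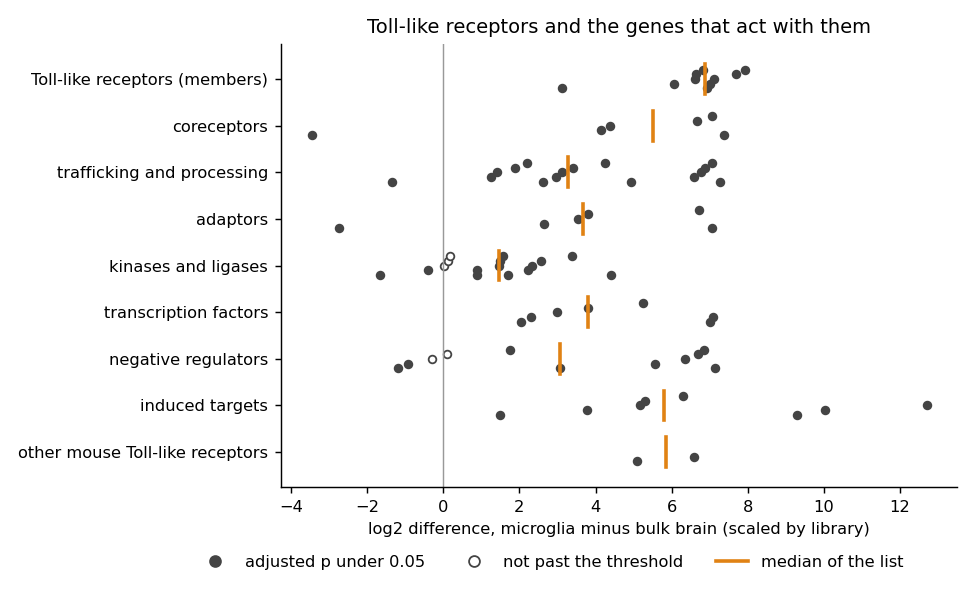
Log2 difference, microglia minus bulk brain, of the 10 receptors and of each list of genes that act with them. Points are genes, filled where the adjusted p was under 0.05, and orange lines are medians. The receptors lie between 3.13 and 7.93, while the kinases and ligases have a median of 1.48, and the rightmost point, Cxcl2, is a fitted value against 0 bulk brain counts.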

How the data were processed

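RNA-seq counts of 10 mouse samples were used, 5 of sorted CD11b+ brain cells and 5 of hemi brains. The authors deposited whole-number counts in a single gene table, unnormalized as its headers and values show, with gene lengths beside them. CASAVA, HISAT2 2.2.1 and featureCounts 2.0 and the build GRCm39 are named in the submitters' processing notes, with no role or order. Not given in the sources used here are the strandedness used in counting, the handling of multi-mapped reads and the gene annotation.

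Genes were kept by filterByExpr, scaled by TMM and tested over the whole table with edgeR 4.0.16 (quasi-likelihood, R 4.3.3) in a model of group alone, with Benjamini-Hochberg adjustment at 0.05. The SE is the log2 difference divided by the square root of F, and intervals are 1.96 SE either side. CPM used TMM-scaled totals. The marker-scaled comparison used the summed marker counts as library size. Python 3.11.15 with numpy, pandas and matplotlib 3.10.9 made tables and plots. Distances between profiles used log2(CPM + 0.5). Replicates of a group differed beyond counting noise (5.45 times or more by chi-square), and each library was counted as 1 sample.

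The members, the gene lists and the alternatives were chosen with earlier results of these data known. Besides the members and the 3 genes nearest in profile to some of them, the genes named in each list are those with the largest difference in either direction at 1 CPM or more in the higher group, and those that did not pass. Cd14, Ly96, Unc93b1, Myd88, Ticam1, Irf3, Tollip, Rnaset2a, Rnaset2b, Tnf, Tlr11 and Ifnb1 were named with their values seen. Some genes of the lists are not reported here by name. Alternatives were other scalings, filters, DESeq2 1.42.0, limma-voom, a 2-fold test, a replicate block, thinning, coding genes only and leaving out libraries.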

Additional observations from a re-analysis of the deposited data

How the results depend on the processing

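All 10 receptor genes stayed called higher in microglia in every alternative run for them with library scaling (219 of 219 values), except that Tlr8 was not tested under the filter of 10 CPM in 5 libraries. With the replicate number as a block 10 were called as well. Same-numbered libraries did not deviate together (correlations of -0.041 to 0.013). This cannot exclude that the numbers pair the samples, because a sort and a hemi brain of the same mouse need not deviate alike. The block changed no receptor's call other than that of Tlr5 after marker scaling. All genes called higher numbered 4679 and called lower 4910 with at least 10 CPM in 5 libraries, and 4450 were called higher in the test against a 2-fold change. Over all genes the median log2 difference of -0.14 became -0.31 under median-of-ratios scaling, -0.33 with library size alone and -0.07 with upper-quartile scaling.

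After marker scaling, bulk brain replicates 3 to 5 alone gave 2 receptors higher and 4 lower, with Tlr6 turning to 0.69 (adjusted p = 0.02), Tlr4 at -0.90 and Tlr9 at -0.71. Itgam alone and the replicate block each gave 1 receptor lower, and with P2ry12 alone 34 of all genes were called higher. Leaving out single libraries gave 1 to 2 receptors higher and 1 to 4 lower. The cause was not tested. The endosomal share in microglia was 60.9% with the longest transcript as length, 64.2% with no length and 59.7% without Tlr3, and in bulk brain 80.6% with no length and 51.6% without Tlr3. Kinases and ligases lower numbered 4 with bulk brain replicates 3 to 5 alone, and induced targets lower numbered 1 there and with DESeq2 (Nos2 in both, which the filter otherwise removed). Negative regulators lower numbered 3 with bulk brain replicates 3 to 5 alone, median-of-ratios scaling, library size alone and DESeq2. In bulk brain, single libraries held 10 or fewer counts of Tlr1, Tlr4, Tlr5, Tlr6, Tlr8 and Tlr9, which limits the precision of those values, and the low Tlr4 and Tlr9 counts were in replicate 2 only.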
